A study of Mus musculus with 8 samples.

Results

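The genes described here are reported targets and feedback regulators of the Wnt pathway, most of them switched on when beta-catenin signalling is active, together with 1 ligand gene. They are Axin2, Notum, Ccn4, Nkd1, Lef1, Tcf7, Rnf43, Znrf3, Dkk1 and the ligand gene Wnt7b. They were chosen by name, with results of these arrays known, because Axin2, Notum and Ccn4 were lower in DA3 cells after co-culture. Of the 10 symbols, 9 had a probe set, 1 each, among 19938 measured genes. Tcf7 had none in the platform annotation, so its expression was not analysed here.

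Secreted Wnt proteins bind Frizzled receptors and LRP5 or LRP6, which halts the destruction complex built on axin and lets beta-catenin reach TCF and LEF factors in the nucleus. Many genes that these factors switch on are brakes on the same pathway, so their transcripts serve as a readout of it. The pathway drives bone formation by osteoblasts and growth of the mammary epithelium.

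The study measured 8 mouse MoGene ST arrays, 2 in each of 4 groups, to see how pre-osteoblastic stroma and breast carcinoma cells act on each other. MBA-15 is a pre-osteoblastic stromal line and DA3 a line from a mammary adenocarcinoma, and neither carries an engineered allele or was given a drug according to the labels. In co-culture DA3 cells were laid over an MBA-15 monolayer. Magnetic particles against the epithelial surface protein EpCAM (CD326) then parted the cells into a bound DA3 fraction and an unbound MBA-15 fraction. The 4 groups are DA3 alone, DA3 co-culture, MBA-15 alone and MBA-15 co-culture, all named as 24 h in the sample descriptions. The descriptions of all 4 arrays labelled alone also hold the word mix, without saying what was mixed. All 8 descriptions carry an assay number of 3, 4 or 5 as well, whose meaning is not given, and DA3 co-culture array 2 is the only array of assay 5. All 8 arrays bear 1 culture date, and nothing states that the 2 arrays of a group are separate cultures, so p-values measure the spread between these arrays, which may be technical.

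The Epcam level did not match the label of the MBA-15 alone arrays. It was 8.45 and 9.25 there on the log2 scale, against 5.58 and 5.19 in co-cultured MBA-15 and 9.57 and 9.46 in DA3 alone. The mean of 16 epithelial markers was 7.65 and 8.18 on the MBA-15 controls labelled alone, 4.96 and 4.84 in co-cultured MBA-15, 8.92 and 8.82 in DA3 alone and 8.37 and 8.67 in co-cultured DA3. The mean of 15 stromal markers was 6.50 and 5.97 in co-cultured DA3 against 5.51 and 5.66 in DA3 alone, and between 7.56 and 8.02 on the 4 MBA-15 arrays. Of 7 leukocyte markers 6, and of 6 endothelial markers all 6, lay below 4.479, the lowest array median, on every array. The SD over genes of the difference between replicates was 0.251 in DA3 alone, 0.369 in MBA-15 labelled alone, 0.443 in co-cultured MBA-15 and 0.482 in co-cultured DA3. In such bulk RNA, fewer cells of a type and less RNA per cell cannot be told apart.

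In DA3 alone Axin2, Notum and Ccn4 stood well above the array median, and in co-cultured DA3 each was lower on both arrays, with differences of -2.45, -1.91 and -1.79 log2 units. Rnf43 was lower on both arrays too. Znrf3 and Wnt7b overlapped between the groups, and Nkd1, Dkk1 and Lef1 lay near or below the array median in both. The contrast of co-cultured DA3 with DA3 alone chose the members, so these values are a description without a test. Of the 9 members, 4 were lower on both co-culture arrays than on both arrays alone, where 22.4% of all genes were, and 2 were higher, where 31.4% of all genes were. Their median difference was -0.87, and that of all genes 0.044.

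Axin2 encodes a scaffold of the destruction complex and is the most widely used transcript readout of beta-catenin signalling. Its log2 level was 6.31 and 6.48 in DA3 alone and 4.15 and 3.73 in co-cultured DA3. The groups are far apart, and both co-culture values lie below the lowest array median of 4.479, so the difference of -2.45 ± 0.39 (SE from limma, 2 arrays a group), or 5.48-fold, is at best a lower bound. Co-cultured MBA-15 sat at the same low level, with 3.90 and 3.83.

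The promoter of Axin2 is shown because this gene has the largest difference of the 9 members between co-cultured DA3 and DA3 alone. That of Dkk1 is shown because it holds the only match to the TCF motif letters searched, among the 6 members with a window. Other forms of the motif were not searched. The RefSeq promoter table of GRCm38.p6 held 11 windows of 6 members (Axin2, Dkk1, Lef1, Nkd1, Rnf43 and Tcf7). In the 250 bases before each start, CTTTGAA and CTTTGAT, core letters that TCF and LEF factors bind, were searched on both strands. A match was present in 1 of these 11 windows and in 7.48% of all 32851 windows. The Axin2 sequence is chr11:108920099-108920348 on the plus strand and the Dkk1 sequence is chr19:30549497-30549746 on the minus strand, both written 5′ to 3′ up to the base before the start, with the match in capitals.
Axin2: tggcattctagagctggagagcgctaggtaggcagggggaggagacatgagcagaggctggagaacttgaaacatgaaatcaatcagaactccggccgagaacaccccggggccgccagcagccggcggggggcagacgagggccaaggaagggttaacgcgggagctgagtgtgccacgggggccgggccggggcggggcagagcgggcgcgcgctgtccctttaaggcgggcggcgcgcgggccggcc
Dkk1: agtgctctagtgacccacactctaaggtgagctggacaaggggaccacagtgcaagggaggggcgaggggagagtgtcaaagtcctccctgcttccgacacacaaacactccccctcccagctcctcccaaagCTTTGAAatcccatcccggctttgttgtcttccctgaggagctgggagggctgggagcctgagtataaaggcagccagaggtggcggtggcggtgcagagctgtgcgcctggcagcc
The Axin2 stretch has 69.2% G and C and no match, and in Dkk1 the match begins at base -117 from the start. A match is a run of letters and not a measured binding site.

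Notum, a secreted enzyme that strips the lipid from Wnt proteins, was at 6.78 and 7.01 in DA3 alone and at 4.66 and 5.31 in co-cultured DA3. The values do not overlap, and the difference was -1.91 ± 0.40, or 3.76-fold. Unlike Axin2, Notum stayed above the lowest array median on both co-culture arrays. Co-cultured MBA-15 was lower again, with 4.43 and 4.15.

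Ccn4, once named Wisp1 for its induction by Wnt, encodes a secreted matricellular protein. It was at 6.41 and 6.33 in DA3 alone and at 4.89 and 4.26 in co-cultured DA3, a difference of -1.79 ± 0.23, or 3.46-fold. It is the 1 member of the 3 that was also high in co-cultured MBA-15, at 6.97 and 6.58. On the MBA-15 controls labelled alone Ccn4 was at 6.69 and 6.57, beside 4.63 and 5.90 for Axin2 and 5.37 and 6.57 for Notum. The co-cultured DA3 arrays were the lowest of the 4 groups for Ccn4.

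Rnf43 and Znrf3 encode sister ubiquitin ligases that clear Frizzled receptors from the cell surface. Rnf43 was at 4.57 and 5.48 in DA3 alone and at 4.11 and 3.69 in co-cultured DA3, a difference of -1.12 ± 0.36. The values do not overlap, but the gap to the nearer array is small, and without DA3 alone array 1 or array 2 the difference was -1.58 or -0.66. Both co-culture values of Rnf43 lie below the lowest array median of 4.479, which limits how well its difference can be read. Znrf3 was at 7.39 and 6.74 in DA3 alone and at 7.01 and 5.36 in co-cultured DA3. Only array 2 of the co-culture was low, and the difference of -0.87 ± 0.60 became -0.05 without it and -1.70 without array 1. Within assay 3, Znrf3 differed by 0.28 and Rnf43 by -1.36.

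The remaining members differed by less. Wnt7b, a canonical ligand made by epithelia, was at 7.41 and 6.90 in DA3 alone and at 7.03 and 6.91 in co-cultured DA3, and the groups overlap (-0.19 ± 0.23). Nkd1, which binds Dishevelled and restrains the pathway, was between 3.96 and 4.23 on the 4 DA3 arrays. Dkk1, a secreted blocker of LRP5 and LRP6 known for its release by tumours in bone, was at 4.19 and 4.06 alone and 4.08 and 4.60 in co-culture. Lef1, a nuclear partner of beta-catenin, was at 3.91 and 3.89 alone and 4.07 and 4.13 in co-culture. Nkd1 and Lef1 were below the lowest array median on all 4 arrays and Dkk1 on 3 of them, so a difference at this level is not readable.

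**Figure D1:**
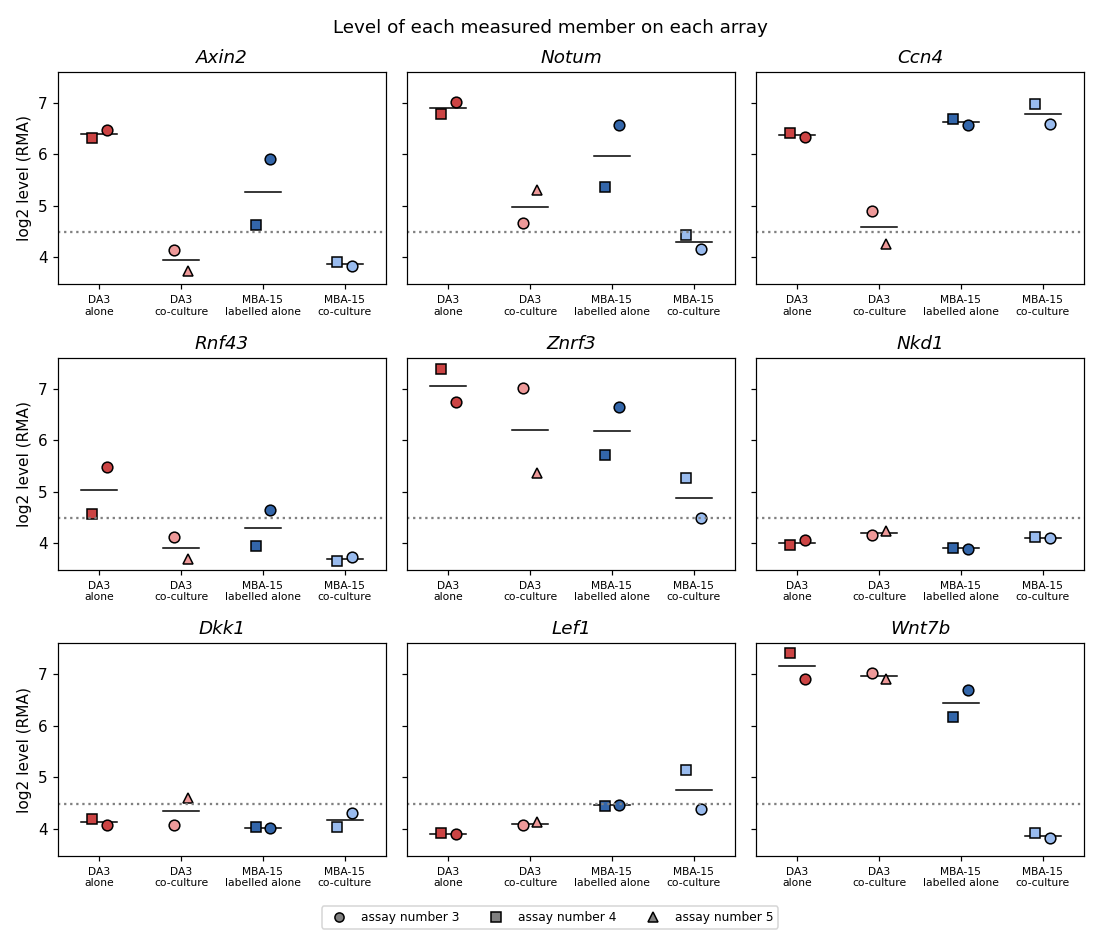
The log2 level of each of the 9 measured members on each array, by group, with the group mean as a bar, the assay number as the symbol and the lowest array median of 4.479 as a dotted line. Axin2, Notum and Ccn4 are high in DA3 alone and low in co-cultured DA3, and Ccn4 stays between 6.57 and 6.97 on the MBA-15 arrays.

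Other measures on the same arrays stood as follows. Epcam differed by -0.18 ± 0.27 between co-cultured DA3 and DA3 alone, the 16 epithelial markers by a median of -0.42 and the 15 stromal markers by a median of 0.557. Among the epithelial markers 9 of 16 were lower on both co-culture arrays and 0 higher, where 22.4% and 31.4% of all genes were. Of the 15 stromal markers 8 were higher on both and 0 lower. The part of these shifts in the lower Wnt targets was not tested. Within assay 3, which holds 1 array of each DA3 group, Axin2 differed by -2.33, Notum by -2.35, Ccn4 by -1.44 and Epcam by -0.17. Those arrays belong to the contrast that chose the 3 targets, so these values too are a description without a test.

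A list of 96 other Wnt genes, all of them measured, was set against the same DA3 contrast. In limma 0 passed upward and 0 downward at 0.05, where 0.0401% of all genes passed (0.0100% higher and 0.0301% lower). At an unadjusted p under 0.05, 11 were higher and 14 lower, against 5.42% and 9.49% of all genes. Both co-culture arrays lay below both arrays alone for 29 of the 96 (30.2%) and above them for 26 (27.1%), against 22.4% and 31.4% of all genes. By role, 11 of the 16 receptors were lower in this way and 2 higher, while of the 14 extracellular antagonists 1 was lower and 9 higher. Except for Dkk3, these 9 had means below 4.479, the lowest array median, in both DA3 groups, so their differences are not readable. The median difference was -0.443 for the receptors, -0.398 for the 18 cytoplasmic relay genes, -0.41 for the 10 nuclear factors, 0.186 for the extracellular antagonists and 0.092 for the 18 ligands, and 0.044 for all genes. The median of the 11 other reported Wnt targets was 0.127. Of these, 4 were higher and 1 lower on both arrays, and 2 were higher and 0 lower at an unadjusted p under 0.05. Most of the 11 already lay below the lowest array median of 4.479 in DA3 alone, so a fall in them is not readable. Those above it differed by -0.28 (Myc), -0.32 (Ccnd1), 0.80 (Cd44) and 0.56 (Ccn5). The median was -0.076 for the 7 genes of R-spondins and their receptors and -0.449 for the 2 of ligand secretion.

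Among the genes with a mean above the lowest array median, the largest differences belonged to receptors for R-spondins, the secreted proteins that shield Frizzled from RNF43 and ZNRF3. Lgr4 was at 7.64 and 7.50 in DA3 alone and at 5.71 and 5.33 in co-cultured DA3 (-2.05 ± 0.47, limma adjusted p = 0.188). Lgr6 was at 6.50 and 6.45 alone and at 5.32 and 5.38 in co-culture (-1.12 ± 0.25, limma adjusted p = 0.184). Both genes are separated between the groups on every array, and neither passed. The relay gene Dact1, left out of this ranking because its mean lies below the lowest array median, differed by -1.22 ± 0.23 (limma adjusted p = 0.146). Bcl9, a co-activator of beta-catenin, differed by -1.11 ± 0.73 (limma adjusted p = 0.486), by -2.16 without co-cultured DA3 array 1 and by -0.07 without array 2. Among the ligands Wnt7a was higher in co-culture, at 7.07 and 7.08 against 6.44 and 5.67 alone (1.02 ± 0.26, limma adjusted p = 0.209), and it did not pass.

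**Figure D2:**
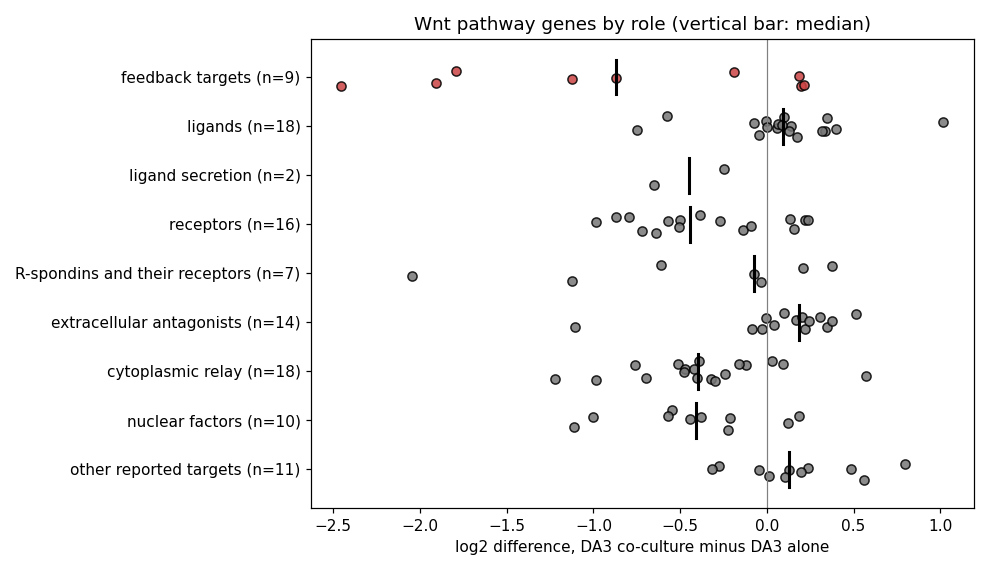
The log2 difference between co-cultured DA3 and DA3 alone for each of the 9 members (red) and the 96 other Wnt genes by role (gray), with the median of each row as a vertical bar. The members, chosen on this contrast, have a median of -0.87, and the receptors, relay genes and nuclear factors have medians between -0.398 and -0.443.

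The next comparison set co-cultured MBA-15 against the controls labelled MBA-15 alone, which share no array with the contrast that chose the members. Wnt7b fell by 2.57 ± 0.23 log2 units, from 6.18 and 6.69 to 3.91 and 3.82 (limma with Benjamini-Hochberg adjustment, adjusted p = 0.00832), and it was the 1 member of 9 to pass, where 0.848% of all genes did (0.772% lower and 0.0752% higher). Its low level is under the lowest array median, so the 5.93-fold difference between these arrays is not exact. It need not be the size of a change in MBA-15 cells. The Epcam level of the controls goes against their label, and its part in this difference was not tested. The call was lost without array 2 labelled MBA-15 alone (adjusted p = 0.0516 in limma), without co-cultured MBA-15 array 2 (0.0825) and with only these 2 groups in the fit (0.0602). Epcam fell by 3.46 ± 0.27 beside it (limma, adjusted p = 0.00713), and it too missed the threshold without co-cultured MBA-15 array 2 (0.0693) and with only these groups (0.0602).

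Axin2 and Notum were lower in co-cultured MBA-15 on both arrays and did not pass. Axin2 was at 4.63 and 5.90 on the MBA-15 controls labelled alone and at 3.90 and 3.83 in co-culture (-1.40 ± 0.39, limma adjusted p = 0.251). Notum was at 5.37 and 6.57 against 4.43 and 4.15 (-1.67 ± 0.40, limma adjusted p = 0.184). In both genes the second array labelled MBA-15 alone is more than 1 log2 unit above the first. Without the first array Axin2 differed by -2.03 (limma adjusted p = 0.0276), and without the second by -0.76. Notum differed by -2.27 and -1.07, and it passed only with a trended and robust variance (limma adjusted p = 0.042). Within assay 4, which holds the first arrays, the differences were -0.73 for Axin2, -0.93 for Notum and -2.27 for Wnt7b, beside -2.87 for Epcam. Within assay 3, which holds the second, they were -2.07, -2.41 and -2.87, beside -4.06 for Epcam.

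Rnf43 (3.93 and 4.63 against 3.66 and 3.73) and Znrf3 (5.71 and 6.65 against 5.27 and 4.48) had the same order of groups, with differences of -0.59 ± 0.36 and -1.30 ± 0.60 and limma adjusted p = 0.694 and 0.572. Both depend on single controls: without the first and the second array labelled MBA-15 alone, Rnf43 differed by -0.94 and -0.24 and Znrf3 by -1.77 and -0.83. Ccn4 overlapped between the groups (0.15 ± 0.23, limma adjusted p = 0.885), as did Lef1 (0.30 ± 0.24, 0.762) and Dkk1 (0.15 ± 0.20, 0.861). Nkd1 differed by 0.21 ± 0.11 at a level near 4 (limma adjusted p = 0.642). In all, 5 of 9 members were lower on both co-culture arrays, where 16.1% of all genes were, and 1 was higher, where 22.3% were. At an unadjusted p under 0.05, 3 of 9 were lower and 0 higher, against 6.52% and 3.29% of all genes. The members' median difference was -0.59 and that of all genes 0.043. The members' calls stand beside 14 of 16 epithelial markers that fell.

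The 5 members that were lower here are also the 5 whose mean in DA3 alone exceeds that in co-cultured MBA-15 by more than 1 log2 unit. On a linear scale from the mean of co-cultured MBA-15 to the mean of DA3 alone, the first and second array labelled MBA-15 alone stood at 14.6% and 64.7% for Axin2, 21.6% and 75.4% for Notum, 10.9% and 55.9% for Rnf43, 20.5% and 65.5% for Znrf3 and 44.4% and 68.1% for Wnt7b. Epcam stood at 44.4% and 81.9%, and the median of the 16 epithelial markers at 37.3% and 59.3%. All of these were higher on the second array. The part of this epithelial signal in the members' differences was not tested.

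**Figure D3:**
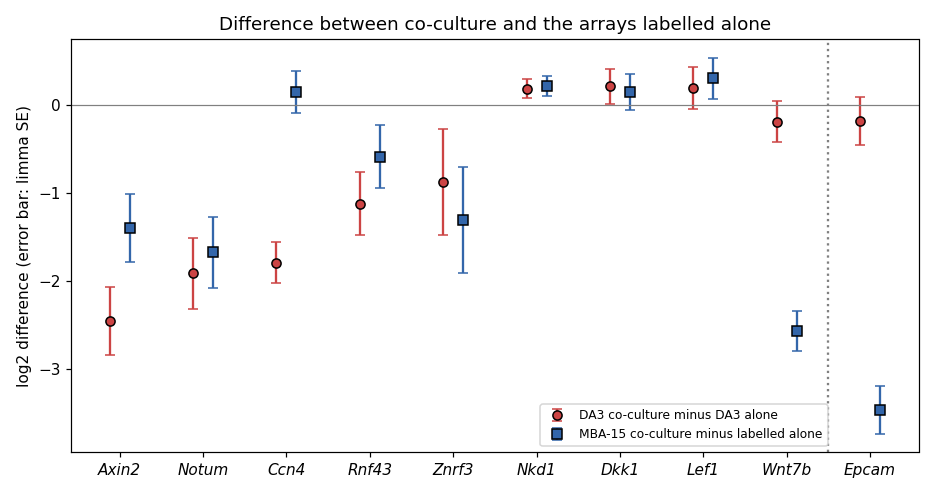
The log2 difference of each member and of Epcam between co-culture and the arrays labelled alone, with limma's SE as error bars, for DA3 (red circles) and MBA-15 (blue squares), 2 arrays a group. Wnt7b differs by -2.57 in MBA-15 beside -3.46 for Epcam and by -0.19 in DA3, while Ccn4 differs by -1.79 in DA3 and 0.15 in MBA-15.

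Of the 96 other Wnt genes 0 rose and 0 fell in co-cultured MBA-15 in limma, where 0.0752% and 0.772% of all genes did. At an unadjusted p under 0.05, 2 of the 96 were higher and 10 lower, against 3.29% and 6.52% of all genes. Their median difference was 0.037 and that of all genes 0.043. Among the genes with a mean above the lowest array median, the largest differences were those of the R-spondin gene Rspo2 (-1.76 ± 0.30, limma adjusted p = 0.0739), the ligand gene Wnt10a (-1.13 ± 0.18, 0.056) and Lgr6 (-1.10 ± 0.25, 0.162). Rspo2 passed with dim genes left out (limma adjusted p = 0.0245), with the trended and robust variance (0.021) and without the first array labelled MBA-15 alone (0.0333).

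Set against each other, the fractions of the 2 lines differed by most, among the 9 members, in Wnt7b. Wnt7b differed by -3.29 ± 0.23 log2 units in co-cultured MBA-15 against DA3 alone (limma adjusted p = 0.000393) and 3.10 ± 0.23 higher in co-cultured DA3 than in co-cultured MBA-15 (limma adjusted p = 0.000736). These comparisons share the co-cultured MBA-15 arrays, where Wnt7b lies below the lowest array median, so both differences are at best lower bounds in size. Wnt7b was the 1 of 6 tested members to pass in each, where 6.47% of all genes were called lower in the first and 4.48% higher in the second. Axin2, Notum and Ccn4 were left out of the tests because the DA3 arrays that chose them enter here.

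Against DA3 alone, co-cultured MBA-15 was lower for Znrf3 (-2.19 ± 0.60, limma adjusted p = 0.0653) and Rnf43 (-1.33 ± 0.36, 0.0594) and higher for Lef1 (0.86 ± 0.24, 0.0651), each on both arrays and none past the threshold. All 3 passed with the trended and robust variance (limma adjusted p = 0.0111, 0.0103 and 0.0119). Znrf3 also passed with a block for the assay number, with dim genes left out, with centred arrays and with only these groups in the fit, and Rnf43 with that block, with centred arrays and after a repeated quantile normalization (limma adjusted p between 0.0188 and 0.0481). Lef1 was at 5.14 and 4.38 in co-cultured MBA-15, so 1 array carries most of the difference, and the difference was 0.48 without it and 1.24 without the other (limma adjusted p = 0.1 and 0.00665). Nkd1 (0.10 ± 0.11, limma adjusted p = 0.723) and Dkk1 (0.04 ± 0.20, 0.957) missed the threshold at levels near 4.

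Between the fractions of the co-culture, Lef1 differed by -0.66 ± 0.24 in DA3 against MBA-15 (limma adjusted p = 0.128, and 0.0458 with the trended and robust variance), Znrf3 by 1.31 ± 0.60 (0.217), Rnf43 by 0.21 ± 0.36 (0.743), Dkk1 by 0.17 ± 0.20 (0.618) and Nkd1 by 0.09 ± 0.11 (0.649). Lef1 differed by -0.28 without co-cultured MBA-15 array 1 and by -1.04 without array 2, where it passed (limma adjusted p = 0.0132). Znrf3 differed by 0.49 without co-cultured DA3 array 1 and by 2.14 without array 2. With the block for the assay number, Znrf3 differed by 2.22, and it passed in none of these fits. That block also leaves co-cultured DA3 array 2 without weight here, because no other array is of its assay. Axin2, given without a test, overlapped between these fractions (0.07), while Notum differed by 0.69 and Ccn4 by -2.20 in DA3 against MBA-15. By their group means, Axin2 ran from DA3 alone (6.39 ± 0.12, SD, n = 2) over the MBA-15 controls labelled alone (5.26 ± 0.90) to co-cultured DA3 (3.94 ± 0.29) and co-cultured MBA-15 (3.87 ± 0.05), and the last groups overlap. Notum had the same order (6.90 ± 0.16, 5.97 ± 0.85, 4.98 ± 0.45 and 4.29 ± 0.20). Ccn4 ran from co-cultured MBA-15 (6.78 ± 0.28) over MBA-15 labelled alone (6.63 ± 0.09) and DA3 alone (6.37 ± 0.06) to co-cultured DA3 (4.58 ± 0.44), and its first and second group overlap.

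Of the 96 other Wnt genes, 6 rose and 10 fell in co-cultured MBA-15 against DA3 alone, where 6.08% and 6.47% of all genes did. Ccn5, a relative of Ccn4 found in stroma, rose by 3.19 ± 0.21 and the secreted glycoprotein gene Dkk3 by 2.37 ± 0.26, while Rspo2 fell by 2.44 ± 0.30, Wnt7a by 2.09 ± 0.26, Lgr6 by 2.01 ± 0.25 and the co-repressor gene Tle4 by 1.91 ± 0.36 (limma adjusted p between 0.000353 and 0.0168). Tle4 lost its call without any 1 of the 4 arrays compared (limma adjusted p from 0.0577 to 0.116).

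In co-cultured DA3 against co-cultured MBA-15 6 rose and 5 fell, where 4.48% and 8.28% of all genes did. Over all genes that split was 894 higher and 1651 lower, and 1281 and 1392 after a repeated quantile normalization. Wnt7a was 3.11 ± 0.26 higher in the DA3 fraction, Rspo2 1.83 ± 0.30 and the adhesion receptor gene Cd44 1.69 ± 0.18. Ccn5 differed by -2.62 ± 0.21, Dkk3 by -2.02 ± 0.26 and Wls, which carries Wnt proteins to the cell surface, by -1.91 ± 0.22 (limma adjusted p between 0.000973 and 0.0117 for the 6). Rspo2 missed the threshold without co-cultured MBA-15 array 2 (limma adjusted p = 0.0597) and with a block for the assay number (0.0519).

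Over the 8 arrays, the genes most like Axin2 by Pearson's r were Bace1 (0.99), the beta-secretase gene, Sh3rf2 (0.98), Usp44 (0.98), Rassf3 (0.98) and Tmem229b (0.98), out of 6674 genes with a mean above the lowest array median and a range over 1 log2 unit. Bace1 was at 8.97 and 9.01 in DA3 alone, 7.20 and 6.92 in co-cultured DA3, 7.81 and 8.49 on the MBA-15 controls labelled alone and 7.21 and 6.96 in co-cultured MBA-15. Unlike Axin2 it lies far above the array median in all groups. Among the members r with Axin2 was 0.94 for Notum, 0.91 for Rnf43, 0.74 for Znrf3, 0.57 for Wnt7b and 0.35 for Ccn4, and it was -0.42 for Dkk1, -0.48 for Lef1 and -0.64 for Nkd1. These values describe 8 arrays in 4 groups that share lines, assay numbers and a normalization, and they carry no p.

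**Figure D4:**
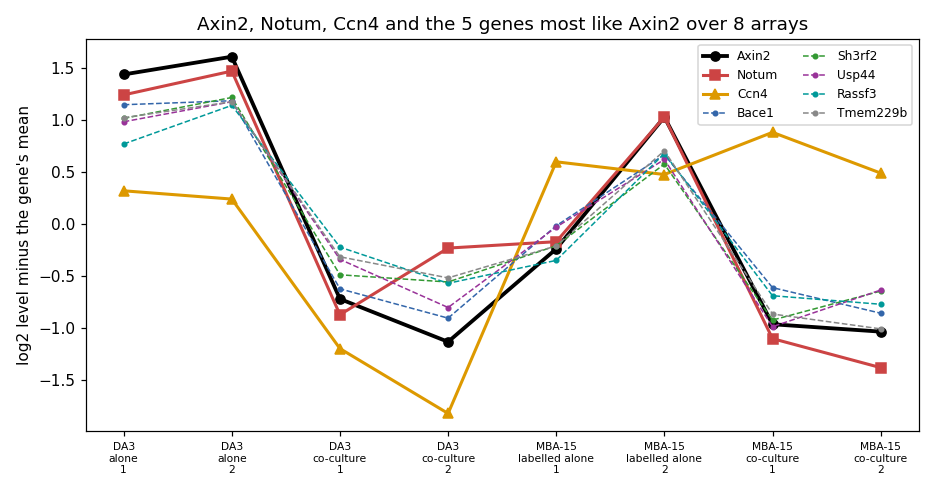
The log2 level of Axin2, Notum, Ccn4 and the 5 genes most like Axin2, each minus its own mean over the 8 arrays, with lines that only join the points of a gene. Notum and the 5 genes follow Axin2 with its peak in DA3 alone, while Ccn4 is low in co-cultured DA3 only.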

How the data were processed

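The authors deposited a log2 value for each probe set. The submitters' processing notes name RMA and Partek 6.5 without parameters, and both RMA and the range of the values give the log2 scale. RMA equalises arrays, so each difference is one relative to all genes on the arrays. The median of an array ranged from 4.479 to 4.642. At most 2 values were identical between any pair of arrays. The number of arrays limits the precision.

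Of 35556 probe sets 21789 had 1 gene symbol, 1621 several and 12146 none listed. The probe set with the highest mean was kept for each of 19938 genes, with no filter on dim ones; 5 of 9 members and 55 of 96 other Wnt genes have a mean above the lowest array median. In R 4.3.3, limma 3.58.1 (lmFit, then eBayes) fitted the mean of each of the 4 groups on the full set of 8 arrays, and comparisons are two-sided contrasts of these means. Benjamini-Hochberg adjustment ran over the whole gene table, at 0.05. Limma was the only tool used for the tests, and nothing was imputed.

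Tested on simulated data for co-cultured MBA-15 against the controls labelled MBA-15 alone over 19938 genes, it called 13 of 50 genes changed by 1 log2 unit, 47 of 50 by 2, 47 of 50 by 3 and 50 of 50 by 4, with 11 false calls. The simulated errors were normal, with variances drawn from limma's own fit, and changes kept their full size in dim genes. These counts therefore need not hold for the real arrays.

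The members and lists were chosen with earlier results of these data known. Named are all members, Epcam, the 5 genes most like Axin2 (clone-named loci passed over) and, of the other Wnt genes, up to 6 by absolute change among those past the threshold, filled to 3 from genes above the lowest array median. In the DA3 contrast Wnt7a, Dact1, Dkk3, Myc, Ccnd1, Cd44 and Ccn5 were named outside this rule, Wnt7a after its values were seen. Group and replicate came from the titles.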

Additional observations from a re-analysis of the deposited data

Results flagged for a closer look

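Among the genes named here, 2 had differences of opposite sign in the lines, with both co-culture arrays beyond both arrays labelled alone. Wnt7a differed by 1.02 log2 units in DA3 and by -1.03 in MBA-15. Cd44 differed by 0.80 in DA3 and by -0.45 in MBA-15. Neither gene passed in either line (limma adjusted p = 0.209 and 0.194 for Wnt7a and 0.183 and 0.478 for Cd44). The difference between the lines was not tested in either gene, and the MBA-15 values rest on arrays whose Epcam level goes against their label. Groups of 2 arrays are too small for a test of single outlying arrays.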

How the results depend on the processing

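The call of Wnt7b between the lines held under all alternatives run. Genes called for co-cultured MBA-15 against labelled alone numbered 169, 334 with a trended and robust variance and 28 with only the 2 groups in the fit. For co-cultured DA3 against alone there were 8, with 3 under the replicate block, 0 with the assay number as a block, 56 with dim genes left out, 1 after a repeated quantile normalization, 14 with arrays centred on their median, 134 with a trended and robust variance and 0 with only 2 groups. DA3 against co-cultured MBA-15 had 2545, and 1123 with only 2 groups. With the assay number as a block, co-cultured DA3 array 2, the only array of assay 5, is fitted by a term of its own. Differences that involve co-cultured DA3 then rest on its array 1, as they do when array 2 is left out. For these differences the assay block and the leave-out of array 2 are not separate checks. The cause of the other shifts was not tested, though fewer arrays or genes enter some fits. Leaving out 1 array gave between 13 and 198, 0 and 3, 1642 and 2229 in these comparisons, and between 995 and 2870 around 2503 for co-cultured MBA-15 against DA3 alone; a lone array is then assumed to vary like the other groups. Nothing in the labels says that a replicate number marks a shared culture. The correlation of replicate differences between groups was 0.032 for the DA3 groups, 0.010 for the MBA-15 groups, 0.311 for the co-culture fractions, 0.213 for co-cultured MBA-15 and DA3 alone, 0.135 for the groups labelled alone and -0.413 for co-cultured DA3 and MBA-15 labelled alone. With only 2 numbers these do not settle a pairing, and the replicate block changed no call of a member. Some signs turned. In DA3, with the assay block, Bcl9 went from -1.11 to 0.04, Znrf3 from -0.87 to 0.04 and Dkk1 from 0.21 to -0.07, and Wnt7b went from -0.19 to 0.12 after quantile normalization. Dkk1 against DA3 alone was -0.02 after quantile normalization and -0.01 after centring, Dkk1 between the co-culture fractions was -0.11 with the assay block, and Nkd1 between the fractions was -0.003 after quantile normalization. Without single arrays, Znrf3, Dkk1 and Wnt7b in DA3 lay between -1.70 and -0.05, -0.05 and 0.48, and -0.45 and 0.07, Ccn4 and Lef1 in MBA-15 lay between -0.05 and 0.35 and between -0.08 and 0.68, Dkk1 against DA3 alone between -0.10 and 0.19, and Rnf43 and Dkk1 between the fractions between -0.01 and 0.42 and between -0.09 and 0.43. Levels below the lowest array median limit what Axin2, Rnf43, Nkd1, Dkk1 and Lef1 can show. They also limit Wnt7b and Notum in co-cultured MBA-15 and Ccn4 on co-cultured DA3 array 2.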
